A study of Danio rerio with 6 samples.

Results

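The 6 genes described here, of unrelated function, were followed in zebrafish embryos mutant for rbm24a: ptpdc1b, snap29, pth1a and dao.2, which were higher in the mutants, and prkd2 and fkbp16, which were lower. They were picked by symbol from the 31624 genes of the deposited table because their levels differed strongly between the groups in every replicate, so the difference between mutant and wild-type embryos is what chose them and is given below as a description, without a test. All 6 symbols had exactly 1 row in the table, and all 6 passed the filter on low values, a mean of at least 0.5 FPKM (reads scaled to library total and gene length) over the 6 libraries, which left 16489 genes. Ptpdc1b passed it only through its mutant level, and prkd2 and fkbp16 only through their wild-type levels.

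The samples were 3 libraries of rbm24a mutant whole embryos and 3 libraries of wild-type whole embryos, all of the AB strain at 33 hours post fertilization (hpf). The mutants carry a deletion of 8 bp made with TALENs, designed nucleases that cut at a chosen site, and the series' design text gives them as rbm24a-/-. The labels name a different exon for it in each of the mutant libraries, and none is given here. Nothing in the labels says whether the 3 libraries of a group came from separate clutches, so the standard errors and p-values measure the spread between these samples, which may be technical. The rbm24a gene encodes an RNA-binding protein that acts on splicing and on the stability and translation of messenger RNA, and is known for its roles in lens, heart and skeletal muscle.

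The 6 genes act in separate processes. Ptpdc1b belongs to the Cys-based phosphatases, which remove phosphate from proteins and which include the CDC14 cell cycle enzymes, and the deposited annotation ties it to the cilium. Snap29 is a SNARE protein, one of the coiled proteins that zip together to fuse membranes, and it is known for joining autophagosomes to lysosomes together with syntaxin 17 and VAMP8. Pth1a encodes parathyroid hormone, the peptide that raises blood calcium through class B receptors, and dao.2 a D-amino acid oxidase, a peroxisomal flavin enzyme that breaks down D-amino acids and releases hydrogen peroxide. Prkd2 encodes protein kinase D2, a kinase that is switched on by diacylglycerol and by protein kinases C, and fkbp16 is named as a member of the FK506-binding proteins, prolyl isomerases that help proteins fold.

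Total counts were 14100805, 13905380 and 16043155 reads in mutant replicates 1 to 3, against 13242789, 13733866 and 14416794 reads in wild-type replicates 1 to 3. The leading principal component of the scaled log2 counts held 61% of the variance and parted the groups. On the next, with 18.4%, mutant replicate 2 stood apart at -43.5, with the other mutants at 24.7 and 13.2 and the wild-type libraries between -15.6 and 11.1. For this reason the changes of the 6 genes are also given without mutant replicate 2. The rbm24a transcript itself had 288, 514 and 366 reads in mutants against 204, 247 and 211 in wild-type embryos. It was called higher at 0.77 on the log2 scale (SE 0.16, edgeR's quasi-likelihood test, adjusted p = 0.00571), a call lost in 2 of 13 alternative fits. Since a deletion this short leaves nearly all of its reads, the level is no check of the genotypes. Markers of all 11 cell types looked for were found, and 0 of their 33 entries were without a read. The neuron marker gap43 was looked for as well but had no entry under that symbol. The summed levels of 7 of the 11 marker lists did not overlap between the groups. Such a sum can rest on 1 gene, and in the notochord and cartilage list col2a1a changed by 0.54 and col9a1a by -0.72 on the log2 scale. Lens markers (cryaa, crygm2d1 and mipb) summed to between 14.2 and 17.2 FPKM in mutants and between 82.8 and 98.6 FPKM in wild-type embryos. Skeletal muscle markers summed to between 4229 and 6234 FPKM in mutants and between 3075 and 3571 FPKM in wild-type embryos. Most of that was actc1b, with means of 4841 FPKM in mutants and 3212 FPKM in wild-type embryos. A second entry of myhz1.1, below the filter, was lower in mutants (0.11 against 0.24 FPKM). In RNA from whole embryos, more or fewer cells of a type and more or less RNA per cell cannot be told apart. Of all 16489 genes tested, 14.2% were called different between the groups at an adjusted p under 0.05 (edgeR's quasi-likelihood test, Benjamini-Hochberg), with 6.71% higher and 7.48% lower in mutants. The groups did not overlap in FPKM for 30.5% of the genes tested.

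Ptpdc1b was close to silent in wild-type embryos and well read in mutants. It had 609, 608 and 726 reads in the 3 mutant libraries, against 19, 16 and 16 reads in the wild-type libraries. In FPKM these were 8.69, 8.80 and 9.11 in mutants, against 0.29, 0.23 and 0.22 in wild-type embryos. The mutant libraries lay within 1.05-fold of each other and the groups were far from overlapping. Means were 8.87 ± 0.218 FPKM in mutants and 0.247 ± 0.0379 FPKM in wild-type embryos (SD, n = 3 each), which is 5.21 (SE 0.17) on the log2 scale, or 36.9-fold. Without mutant replicate 2 the log2 change was 5.28. The level of ptpdc1b was above that of 66.2% of the tested genes in mutants and above that of 0.491% in wild-type embryos. Genes low in both groups had been filtered out, so its place near the bottom in wild-type embryos follows in part from the filter. By log2 change it stood at place 23 from the top of all genes tested. Snap29, pth1a and dao.2 stood at places 94, 80 and 109 from the top, and prkd2 and fkbp16 at places 56 and 57 from the bottom. A log2 change of at least 2 in size was found for 348 of all genes tested, or 2.11%.

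Snap29 was measured with more reads than any of the other 5 genes. It had 677, 843 and 809 reads in mutants, against 117, 183 and 142 reads in wild-type embryos. Its levels were 8.18, 10.33 and 8.59 FPKM in mutants, against 1.51, 2.27 and 1.68 FPKM in wild-type embryos, so the lowest mutant library was well above the highest wild-type library. Replicate 2 was the highest library in both groups. Means were 9.03 ± 1.1 FPKM in mutants and 1.82 ± 0.399 FPKM in wild-type embryos (SD, n = 3 each), and the log2 change was 2.36 (SE 0.13), or 2.33 without mutant replicate 2.

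Pth1a was the gene with the fewest reads among those that were higher. It had 45, 26 and 61 reads in mutants, against 4, 12 and 5 reads in wild-type embryos. In FPKM this was 3.84, 2.25 and 4.58 in mutants, against 0.36, 1.05 and 0.42 in wild-type embryos. The groups did not overlap, but the lowest mutant library and the highest wild-type library, both replicate 2, were the closest of any of the 6 genes. Means were 3.56 ± 1.19 FPKM in mutants and 0.610 ± 0.382 FPKM in wild-type embryos (SD, n = 3 each), which is 2.60 (SE 0.46) on the log2 scale. Without mutant replicate 2 it was 2.89, and the wild-type mean rests on 21 reads in all.

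Dao.2 had 206, 176 and 201 reads in mutants, against 33, 35 and 58 reads in wild-type embryos. Its levels were 11.28, 9.77 and 9.67 FPKM in mutants, against 1.92, 1.97 and 3.11 FPKM in wild-type embryos. The mutant libraries were close to each other and all above the wild-type libraries, of which replicate 3 was the highest. Means were 10.2 ± 0.902 FPKM in mutants and 2.33 ± 0.673 FPKM in wild-type embryos (SD, n = 3 each), and the log2 change was 2.18 (SE 0.22), or 2.28 without mutant replicate 2.

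Prkd2 was the mirror image of ptpdc1b, read in wild-type embryos and nearly lost in mutants. It had 15, 25 and 15 reads in mutants, against 358, 406 and 413 reads in wild-type embryos, on the longest exonic length of the 6 genes, 6355 bp. In FPKM this was 0.17, 0.28 and 0.15 in mutants, against 4.25, 4.65 and 4.51 in wild-type embryos. Reads were still present in each mutant library, and mutant replicate 2 had the most of them. Means were 0.200 ± 0.0700 FPKM in mutants and 4.47 ± 0.203 FPKM in wild-type embryos (SD, n = 3 each), and the log2 change was -4.45 (SE 0.18), or -4.70 without mutant replicate 2. Its level was above that of 0.716% of the tested genes in mutants and above that of 48.5% in wild-type embryos. The low place in mutants follows in part from the filter, which took out genes low in both groups.

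Fkbp16 had 9, 1 and 6 reads in mutants, against 100, 115 and 127 reads in wild-type embryos. Its levels were 0.42, 0.05 and 0.25 FPKM in mutants, against 5.0, 5.55 and 5.84 FPKM in wild-type embryos. The wild-type libraries lay within 1.17-fold of each other, while the mutant mean rests on 16 reads in all and spread 8.40-fold. Means were 0.240 ± 0.185 FPKM in mutants and 5.46 ± 0.427 FPKM in wild-type embryos (SD, n = 3 each), which is -4.41 (SE 0.39) on the log2 scale. The single read in mutant replicate 2 weighs on this value, which was -3.90 without that library.

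**Figure D1:**
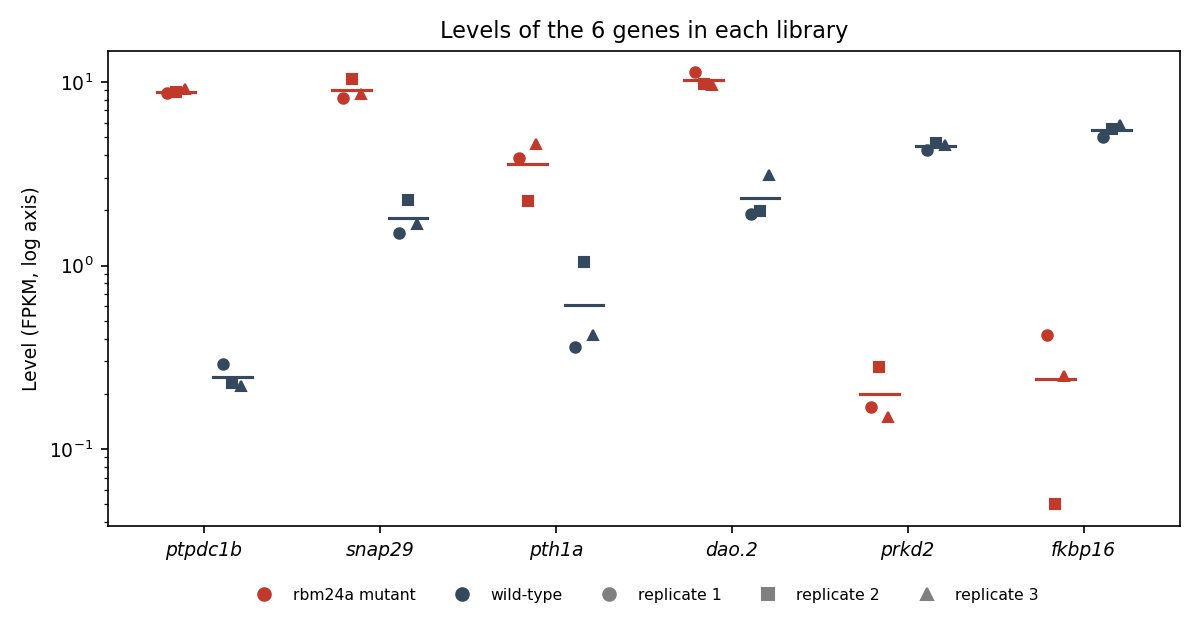
Level of each of the 6 genes in FPKM, on a log axis, in 3 rbm24a mutant libraries (red, left) and 3 wild-type libraries (dark, right), with a bar at each group's mean and a symbol for each replicate number. Ptpdc1b, snap29, pth1a and dao.2 are higher in mutants and prkd2 and fkbp16 lower, without overlap, and the lowest point of all is fkbp16 in mutant replicate 2 at 0.05 FPKM.

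The authors' deposited table of changed genes lists all 6, in the same directions, with changes that are smaller in size. For ptpdc1b the authors' deposited table gives a log2 change of 4.57 (SE 0.18) and for snap29 2.25 (SE 0.13). For dao.2 the authors' deposited table gives 1.91 (SE 0.20) and for prkd2 -3.89 (SE 0.19). The gap is widest for the genes with the fewest reads, pth1a at 1.59 (SE 0.29) and fkbp16 at -3.11 (SE 0.26) in the authors' deposited table.

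None of the 6 genes had a row in the splicing sheets that were held here, which cover skipped exons, retained introns, mutually exclusive exons and alternative 5' and 3' splice sites. For alternative 3' splice sites 1030 events are stated and 556 were held, so that search was partial. Only 13.5% of all genes tested had an event at a false discovery rate under 0.05 in the authors' deposited table. Ptpdc1b and pth1a also had few reads in wild-type embryos, and prkd2 and fkbp16 in mutants. The absence of rows for these 6 genes therefore says little about their splicing.

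The close relatives of the 6 genes were then read, to see whether a gene's paralogs moved with it or against it. In the protein kinase D family the change lay in prkd2. Prkd3 had 0.82, 1.24 and 0.85 FPKM in mutants, against 0.74, 0.96 and 0.77 FPKM in wild-type embryos, a log2 change of 0.28 (SE 0.19) that did not pass (edgeR's quasi-likelihood test, adjusted p = 0.398). Prkd1 was below the filter, with 22, 20 and 25 reads in mutants against 16, 19 and 27 reads in wild-type embryos. The 3 kinases together summed to 1.38, 1.88 and 1.39 FPKM in mutants and to 5.30, 5.96 and 5.75 FPKM in wild-type embryos. Prkd2 made up between 10.8% and 14.9% of that sum in mutants, against between 78.0% and 80.2% in wild-type embryos. Without prkd2, the sums of the other kinases overlapped, with 1.21, 1.60 and 1.24 FPKM in mutants and 1.05, 1.31 and 1.24 FPKM in wild-type embryos.

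Ptpdc1a, the paralog of ptpdc1b, showed no such shift. It had 1.18, 2.18 and 1.58 FPKM in mutants, against 1.65, 2.23 and 2.05 FPKM in wild-type embryos, a log2 change of -0.23 (SE 0.21) that did not pass (edgeR's quasi-likelihood test, adjusted p = 0.548). Ptpdc1b was therefore between 80.1% and 88.0% of the summed level of the pair in mutants, against between 9.35% and 14.9% in wild-type embryos.

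Among the SNAP proteins, the SNARE family of snap29, 1 other member was called. Snap23.2, a copy of the widely expressed SNAP-23, had 6, 9 and 8 reads in mutants, against 25, 41 and 19 reads in wild-type embryos. It fell by 1.91 on the log2 scale (SE 0.41, edgeR's quasi-likelihood test, adjusted p = 0.0074), the opposite direction to snap29. The far more abundant copy, snap23.1, had 24.3 ± 2.36 FPKM in mutants and 26.0 ± 1.70 FPKM in wild-type embryos (SD, n = 3 each). The synaptic members snap25a and snap25b changed by -0.03 and -0.27 and snap47 by -0.05 on the log2 scale, and these 3 did not pass. Summed over the 6 SNAP genes, levels were 60.4, 75.5 and 62.6 FPKM in mutants, against 59.6, 68.7 and 66.7 FPKM in wild-type embryos, which overlap. The share of snap29 in that sum was between 13.5% and 13.7% in mutants, against between 2.52% and 3.30% in wild-type embryos.

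The neighbouring copy of dao.2 was higher as well. Dao.1 had 66.87, 40.79 and 53.40 FPKM in mutants, against 28.51, 23.33 and 24.29 FPKM in wild-type embryos, and rose by 1.15 on the log2 scale (SE 0.19, edgeR's quasi-likelihood test, adjusted p = 0.00127). It is the main oxidase of the family by level, and dao.2 made up between 14.3% and 19.2% of the summed family level in mutants, against between 6.28% and 11.2% in wild-type embryos. Dao.3 was below the filter, with 13, 4 and 7 reads in mutants and 3, 0 and 6 reads in wild-type embryos. How the authors counted reads that match several copies is not stated in the labels, so the split between these tandem genes is uncertain.

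Pth1b, the other parathyroid hormone gene of zebrafish, had 38, 12 and 36 reads in mutants, against 14, 5 and 10 reads in wild-type embryos. The groups overlapped through mutant replicate 2, and its log2 change of 1.53 (SE 0.52) did not pass (edgeR's quasi-likelihood test, adjusted p = 0.0678). Replicate 2 was the lowest pth1b library in both groups, while for pth1a it was the lowest in mutants and the highest in wild-type embryos. The hormone-like genes pthlha, at 0.06 on the log2 scale, and pth2, with 0, 0 and 5 reads in mutants and 0, 3 and 1 reads in wild-type embryos, gave no difference that was detectable at this depth.

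**Figure D2:**
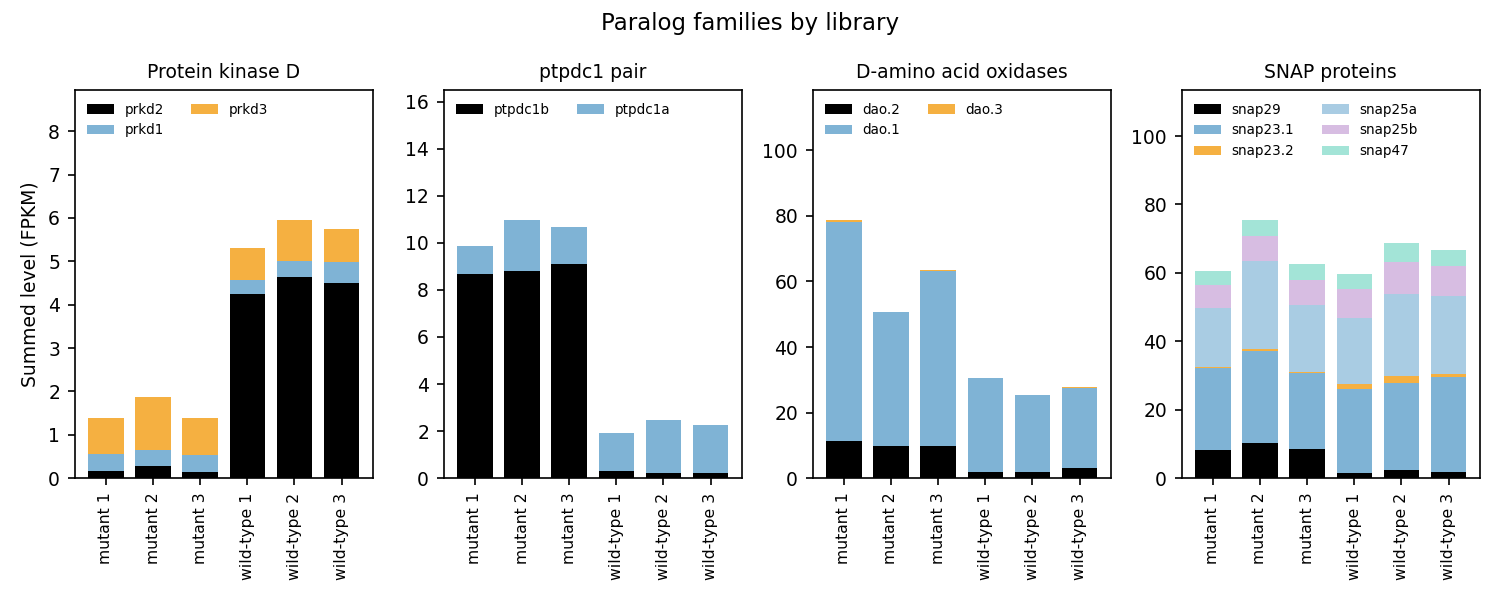
Stacked level in FPKM of the members of 4 paralog families in each library, mutants left and wild-type right, with the gene of interest in black at the base. Prkd2 makes up most of its family's bar in wild-type libraries only and ptpdc1b in mutant libraries only, dao.1 is most of the oxidase bar in every library, and snap29 is a small part of a sum that overlaps between the groups.

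Wider lists of genes that work with each of the 6 were read in the same fit. Over all 6 lists, 116 genes were tested, of which 10 were higher and 8 lower, or 15.5%, close to the 14.2% of all genes tested. The median log2 change over these related genes was -0.02, and -0.00 over all genes.

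Peroxisomal and D-amino acid enzymes, the list around dao.2, had 6 of 18 tested genes higher and 0 lower, with a median log2 change of 0.30. This count includes the tandem copy dao.1, and 6.71% of all genes tested were higher and 7.48% lower. Beside dao.1, 4 of the 6 encode enzymes that oxidise amino or hydroxy acids. Pipox, which oxidises pipecolic acid and sarcosine in peroxisomes, had 1.59, 1.28 and 1.59 FPKM in mutants against 0.35, 0.33 and 0.49 FPKM in wild-type embryos and rose by 1.97 on the log2 scale (SE 0.34). D-aspartate oxidase, listed as DDO, which takes the acidic D-amino acids that D-amino acid oxidase does not, rose by 1.64 (SE 0.30), with 47, 69 and 52 reads in mutants and 18, 21 and 13 reads in wild-type embryos. Sardh, the mitochondrial sarcosine dehydrogenase, rose by 0.71 (SE 0.14), and hao1, the peroxisomal glycolate oxidase, by 0.54 (SE 0.12). Adjusted p-values by edgeR's quasi-likelihood test were 0.00151 for pipox, 0.00221 for DDO, 0.004 for sardh and 0.00723 for hao1.

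The sixth gene of that list was pex14, a docking protein of peroxisomal import, at 0.50 (SE 0.14, edgeR's quasi-likelihood test, adjusted p = 0.0337). Its call was lost without mutant replicate 1 or 3 or any 1 wild-type library, with library totals and with limma, and under those settings the list had 5 genes higher and 0 lower. Without mutant replicate 2 the list had 7 higher and 2 lower, and with no filter 6 higher and 1 lower. The share of all genes tested that was called was 29.3% without mutant replicate 2 and 12.2% with no filter, against 14.2% in the main fit. The lowest gene of the list, which has only a clone name, changed by -0.97 (SE 0.37). It did not pass in the main fit (edgeR's quasi-likelihood test, adjusted p = 0.104). By the same test it was called lower at -1.50 without mutant replicate 2 (adjusted p = 0.000998) and at -0.98 with no filter (adjusted p = 0.0089). With the replicate block it was called lower at -0.99 (adjusted p = 0.00276). Catalase (cat), which clears the peroxide these enzymes release, changed by 0.25 (SE 0.16) and hao2 by -0.15 (SE 0.15), and neither passed. Of 3 markers of liver and gut, only cp was higher beside this list. Cp, the ceruloplasmin gene, had 8.93, 16.19 and 7.03 FPKM in mutants against 2.00, 2.78 and 2.65 FPKM in wild-type embryos. The other 2 were below the filter and had fewer reads in mutants, with 0, 0 and 2 reads of fabp10a in mutants against 5, 1 and 2 in wild-type embryos, and 5, 5 and 1 reads of cdx1b in mutants against 7, 3 and 11 in wild-type embryos. The summed level of the 3 was between 7.30 and 16.4 FPKM in mutants and between 3.00 and 3.31 FPKM in wild-type embryos, nearly all of it from cp, and its part in the values of dao.2 and its relatives was not tested.

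SNAREs and proteins of autophagosome fusion, the list around snap29, had 1 of 38 tested genes higher and 7 lower, with a median log2 change of -0.07. Of all genes tested, 6.71% were higher and 7.48% lower. The partners of snap29 named above did not pass, with stx17 (syntaxin 17) at -0.41 (SE 0.33) and vamp8 at -0.11 (SE 0.14). Map1lc3b, an LC3 protein that coats autophagosomes, fell by 0.87 on the log2 scale (SE 0.18, edgeR's quasi-likelihood test, adjusted p = 0.00505). Its levels were 35.54, 66.13 and 31.89 FPKM in mutants, against 81.38, 77.78 and 89.19 FPKM in wild-type embryos, so mutant replicate 2 lay between the other mutants and the wild-type libraries. The endosomal syntaxin stx8 fell by 0.85 (SE 0.24), bet1, a SNARE of transport from the endoplasmic reticulum, by 0.66 (SE 0.18), and vamp7, listed as sybl1, by 0.66 (SE 0.20). Stx6 and gabarapb also fell, by 0.35 and by 0.37 on the log2 scale, and ykt6 rose by 0.36.

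Only snap23.2 and map1lc3b of these 8 were called in each alternative in which they were tested. The 7 lower calls became 4 without mutant replicate 1, 11 without mutant replicate 2, 2 without mutant replicate 3, and 2, 3 and 2 without wild-type replicates 1, 2 and 3. Over all genes tested the 1234 lower calls moved likewise, to 866, 2435 and 767 without mutant replicates 1, 2 and 3. They were 740, 845 and 727 without wild-type replicates 1, 2 and 3. The ykt6 call was absent without mutant replicate 1 or 3 or any 1 wild-type library. It was also absent with library totals, no filter, DESeq2 and limma.

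The protein kinase D list, with the kinases and lipases upstream and several substrates, had 1 of 18 tested genes higher and 0 lower, with a median log2 change of -0.05. The gene called was prkcq, a protein kinase C (PKC theta) of the class that switches on protein kinase D. It had 112, 177 and 169 reads in mutants, against 18, 16 and 17 reads in wild-type embryos, or 2.12 ± 0.486 FPKM in mutants and 0.253 ± 0.0231 FPKM in wild-type embryos (SD, n = 3 each). It rose by 3.11 on the log2 scale (SE 0.23, edgeR's quasi-likelihood test, adjusted p = 2.43e-06), while prkd2 was lower. The other tested genes of the list lay between -0.27 for prkchb and 0.55 for kidins220a on the log2 scale. Kidins220a was called higher at 0.54 with no filter (edgeR's quasi-likelihood test, adjusted p = 0.0221) and with the replicate block (adjusted p = 0.017). Without mutant replicate 2 col4a3bpb was called lower at -0.59 (edgeR's quasi-likelihood test, adjusted p = 0.0397).

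Of 18 tested genes in the list of FK506-binding proteins, 2 were higher and 0 lower, with a median log2 change of -0.04. Among all genes tested 6.71% were higher and 7.48% lower. Fkbp11, an isomerase of the secretory pathway, had 40.38, 37.06 and 33.84 FPKM in mutants, against 24.41, 21.62 and 23.19 FPKM in wild-type embryos, and rose by 0.74 on the log2 scale (SE 0.12, edgeR's quasi-likelihood test, adjusted p = 0.00118). The gene given as fkbp15a in the table of gene names and as si:ch211-208h16.4 in the deposited table had 92, 157 and 55 reads in mutants, against 15, 17 and 11 reads in wild-type embryos. It rose by 2.77 on the log2 scale (SE 0.39, edgeR's quasi-likelihood test, adjusted p = 0.000349). Fkbp8, an anchored member found at mitochondria, changed by -0.09 (SE 0.11) and did not pass. The lowest of the list was fkbp10a, a collagen chaperone gene, at -0.82, which did not pass. Without mutant replicate 2 the list had 5 genes higher and 1 lower, fkbp10a being the lower one at -1.18 (edgeR's quasi-likelihood test, adjusted p = 0.00179). At that setting 29.3% of all genes tested were called, against 14.2% in the main fit.

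The list around pth1a holds hormones, receptors, vitamin D enzymes and calcium and phosphate transporters, and most of it was too low to test. Of 27 genes 10 were tested, and 0 of them were called higher or lower by edgeR's quasi-likelihood test, by DESeq2 or by limma. Their median log2 change was 0.25. By edgeR's quasi-likelihood test 1 of them, pth1b, had an unadjusted p under 0.05, as had 4449 of all 16489 genes tested. Without mutant replicate 2, pth1b was called higher at 1.92 (edgeR's quasi-likelihood test, adjusted p = 0.00122) and trpv6 lower at -1.23 (adjusted p = 0.000405). With no filter on low values pth1b was called as well, at 1.53 (edgeR's quasi-likelihood test, adjusted p = 0.0153). Among those tested, gcm2, a regulator of the parathyroid and gill buds, changed by 0.26, the calcium channel gene trpv6 by -0.49 and the stanniocalcin gene stc1l by 0.49 on the log2 scale. The calcium sensing receptor, listed as CASR, had 0 reads in the mutants and 1 read in the wild-type libraries, and the receptor genes pth1ra and pth1rb had 11 and 43 reads in mutants and 9 and 35 reads in wild-type embryos. The list around ptpdc1b, other Cys-based phosphatases, had 0 of 14 tested genes higher and 1 lower, with a median log2 change of -0.07. Among all genes tested 6.71% were higher and 7.48% lower. Dusp23b fell by 0.55 (SE 0.17) with an adjusted p of 0.0498 by edgeR's quasi-likelihood test. Its call was lost without any 1 of the 6 libraries, and with another scaling (RLE), no filter and DESeq2.

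**Figure D3:**
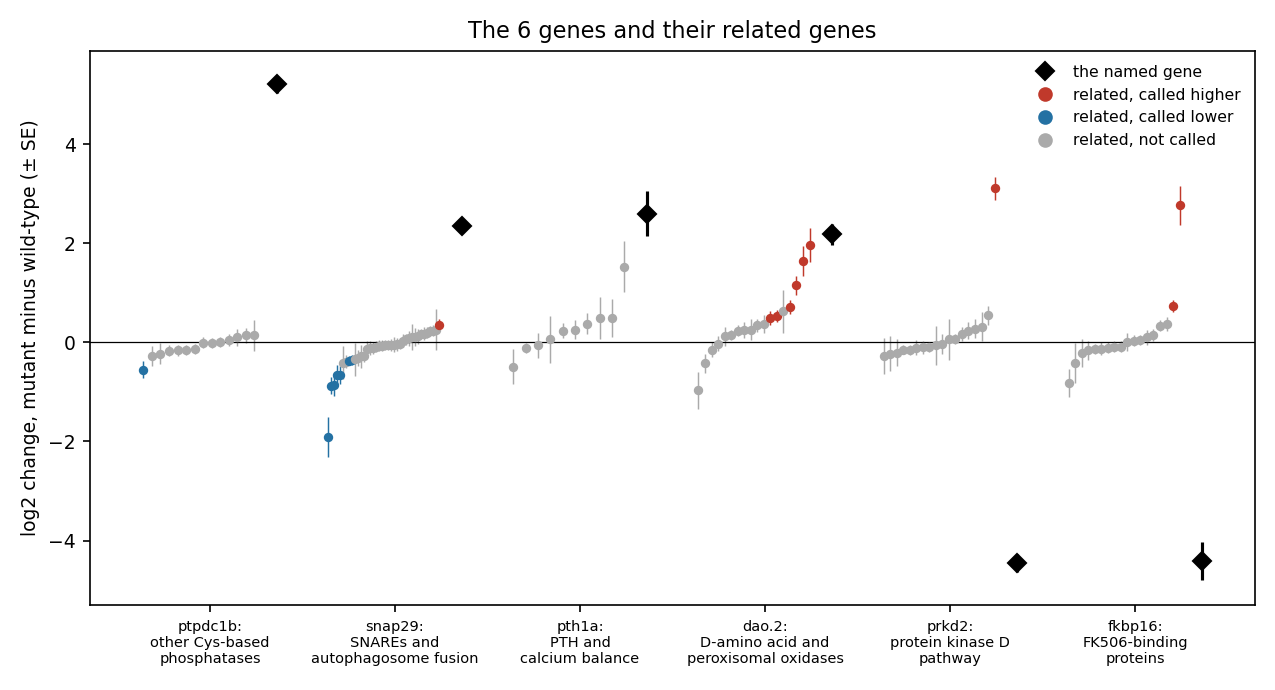
Change of each tested related gene (circles) and of the 6 genes (diamonds) on the log2 scale, mutant minus wild-type, with standard errors, sorted within each list. Red points were called higher, blue points lower and grey points neither. Most related genes lie near 0, the 6 called genes around dao.2 lie above it, and prkcq at 3.11 lies opposite to prkd2 at -4.45.

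The genes next to each of the 6 were read as well, as the 5 nearest tested genes on each side that could be matched by name. Their order was that of RefSeq in the assembly GRCz12tu, used only for the order of names. It is not the build of the deposited counts (GRCz11). Genes whose symbol or synonyms matched no tested gene, or more than 1, were passed over, so a nearer gene may be missing. Here and below, next to means next among the matched genes. Of these 60 neighbours 6 were higher and 4 lower, or 16.7%, against 14.2% of all genes tested, and their median log2 change was 0.03. By edgeR's quasi-likelihood test 17 of the 60 neighbours and 4449 of all 16489 genes tested had an unadjusted p under 0.05. The 10 neighbours of prkd2 had 0 calls by that test, with 1 gene at an unadjusted p under 0.05, and lay between -0.43 and 0.50 on the log2 scale. That gene, si:dkey-31c13.1, changed by -0.43 and was close to the threshold (edgeR's quasi-likelihood test, adjusted p = 0.0619). It was called lower at -0.45 by limma (adjusted p = 0.0252) and at -0.54 without mutant replicate 3 (edgeR's quasi-likelihood test, adjusted p = 0.0488). It was also called lower with library totals, no filter, a minimum of 5 FPKM and the replicate block. With the replicate block slc1a5 was called higher at 0.44 (edgeR's quasi-likelihood test, adjusted p = 0.0491). Without mutant replicate 2 strn4 was called lower at -0.53 (edgeR's quasi-likelihood test, adjusted p = 0.0298).

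The gene next to ptpdc1b, si:ch73-142c19.1, had 41, 64 and 51 reads in mutants, against 17, 23 and 19 reads in wild-type embryos, and rose by 1.36 on the log2 scale (SE 0.28, edgeR's quasi-likelihood test, adjusted p = 0.0053). Gp9, a platelet glycoprotein gene 3 tested genes away on the same side, rose by 1.13 (SE 0.30), and its call was lost without mutant replicate 3 or any 1 wild-type library. The gene next to snap29, serpind1, which encodes the liver protein heparin cofactor II, had 3.53, 4.6 and 2.19 FPKM in mutants, against 0.89, 1.12 and 1.24 FPKM in wild-type embryos, and rose by 1.70 (SE 0.26, edgeR's quasi-likelihood test, adjusted p = 0.000671). Of the liver and gut markers given above, cp was higher too and fabp10a and cdx1b were not, and their part in this was not tested. Polb, on the far side of snap29, fell by 0.36 (SE 0.10), a call lost without mutant replicate 3 or wild-type replicate 1 or 3.

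Next to pth1a, 3 genes were lower where pth1a was higher, namely btbd10a (-0.49), trim35-40 (-0.48) and borcs5 (-0.75) on the log2 scale. These 3 calls were absent without mutant replicate 1 or 3 or any 1 wild-type library, and with library totals. With limma those of btbd10a and trim35-40 were absent as well. Beside dao.2 the 1 call was dao.1. Beside fkbp16 the protease gene ctsh rose by 0.88 (SE 0.13, edgeR's quasi-likelihood test, adjusted p = 0.000392) and si:ch211-39k3.2 by 0.55 (SE 0.17). The call of si:ch211-39k3.2 was lost without any 1 of the same libraries, and with library totals, no filter and DESeq2. Over the 60 neighbours the 10 calls became 6 without mutant replicate 1, 19 without mutant replicate 2, 5 without mutant replicate 3, and 4, 5 and 4 without wild-type replicates 1, 2 and 3. The share of all genes tested that was called moved likewise, from 14.2% to 9.99%, 29.3% and 9.52% without mutant replicates 1, 2 and 3. It was 8.39%, 9.56% and 8.29% without wild-type replicates 1, 2 and 3.

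**Figure D4:**
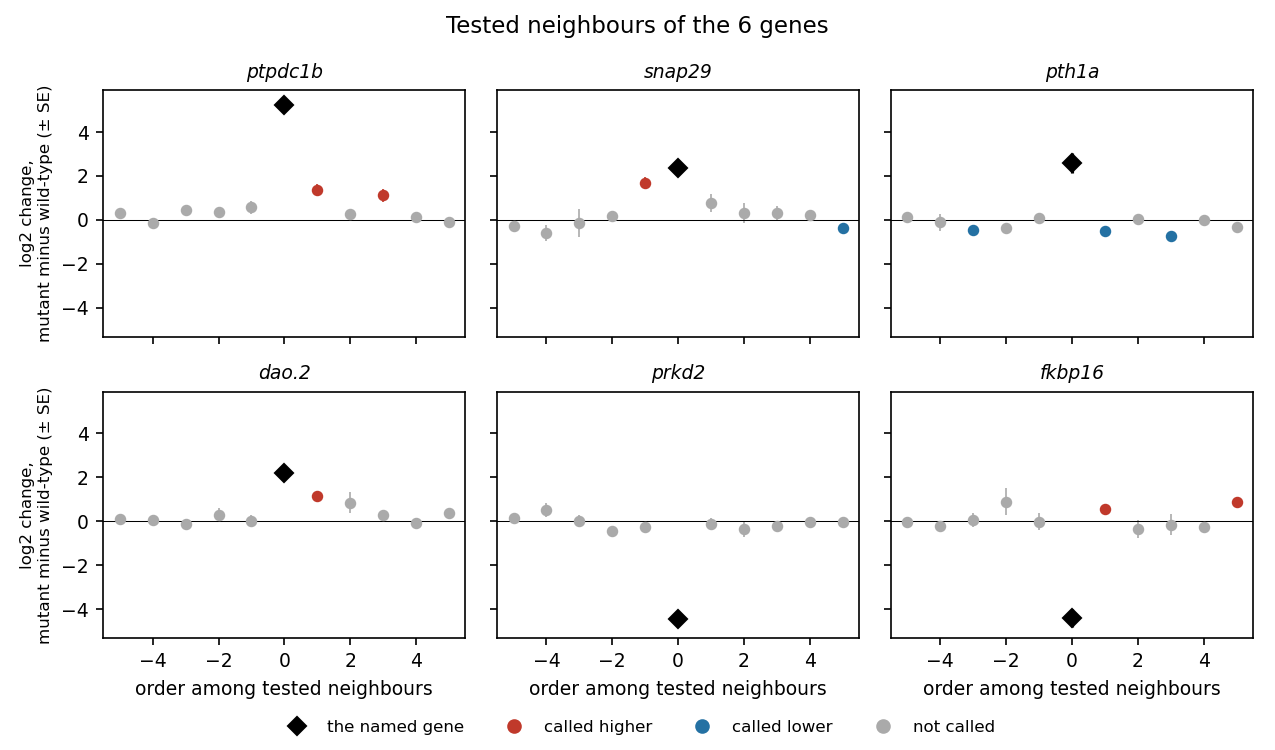
Change on the log2 scale, mutant minus wild-type, with standard errors, of each of the 6 genes (diamond, at 0) and of its neighbours. These are the 5 nearest tested genes matched by name on either side, by order in RefSeq and not by distance. Red points were called higher, blue points lower and grey points neither. The nearest gene on 1 side was called higher beside ptpdc1b, snap29, dao.2 and fkbp16, a grouping made after the values were seen. Beside dao.2 this gene is its copy dao.1, and beside fkbp16 the call was lost in 8 of 13 alternatives. The nearest gene on their other side was not called, nor was either beside prkd2, and btbd10a beside pth1a was lower. Over all 60 neighbours 6 were higher and 4 lower, where 6.71% of all genes tested were called higher and 7.48% lower. The neighbours of prkd2 lie between -0.43 and 0.50.

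Splicing events were found for relatives and neighbours of the 6 genes. By the authors' deposited table, a total of 39 events in 20 related genes had a false discovery rate (FDR) under 0.05. Counting only genes in the expression test, 16.4% of the related genes had such an event in the authors' deposited table, against 13.5% of all genes tested. Of the 39 events, 18 had at least 20 junction reads in every library, and the levels of 4 of those 18 did not overlap between the groups. The same share over all events held was not computed, so nothing is read from 4 of 18. Cttn, with 1 of those 4 events, is a cortical actin regulator and a known substrate of protein kinase D. Its use of a pair of mutually exclusive exons shifted in part in the authors' deposited table. The exon of the pair that is listed first lies on chromosome 18 at 50927293 to 50927428 (GRCz11). The strand was not read, so which exon of the pair the inclusion level counts is open. That level was 0.717, 0.741 and 0.730 in mutants, against 0.631, 0.543 and 0.642 in wild-type embryos. This is a difference of 12.4 percentage points in the authors' deposited table (FDR 1.18e-21), with at least 155 reads in every library and no overlap. Levels within a group carry no replicate number, so they are not tied to single libraries.

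Kidins220b, another protein kinase D substrate, used 1 exon of such a pair more in mutants by 24.3 percentage points in the authors' deposited table. Levels were 0.588, 0.748 and 0.767 in mutants against 0.585, 0.317 and 0.473 in wild-type embryos, but with as few as 11 reads in a library. A second such event sharing an exon gave 28.0 percentage points in the authors' deposited table, with as few as 10 reads. Its skipped-exon events gave -27.6, -24.2 and 13.9 percentage points in the authors' deposited table. These had as few as 4, 5 and 0 reads in a library, and levels that overlapped or were missing. In fkbp7, a folding enzyme of the endoplasmic reticulum, an exon of 111 bp was included at 0.887, 0.925 and 0.908 in mutants against 0.929, 0.964 and 0.959 in wild-type embryos, a difference of -4.4 percentage points in the authors' deposited table. A version of this exon with the same start and 152 bp gave -2.1 percentage points in the authors' deposited table. It had at least 639 reads in every library, against 269 for the exon of 111 bp, and its levels overlapped between the groups. Among the neighbours, srsf6a, a splicing factor gene on the ptpdc1b side opposite to si:ch73-142c19.1, included an exon of 180 bp at 0.103, 0.121 and 0.091 in mutants against 0.896, 0.129 and 0.270 in wild-type embryos in the authors' deposited table. The authors' deposited table gives a difference of -32.7 percentage points for it, and the wild-type level of 0.896 stood far above the other wild-type levels.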

How the data were processed

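Groups were taken from the sample titles. Per the submitters' processing notes, the assembly was GRCz11 and the tools were HISAT2 2.0.1, DESeq2, HTSeq 0.6.1, bcl2fastq and cutadapt, with no role or order given. Per the labels' protocols, TruSeq RNA libraries were read as 100 bp paired ends. The strand setting and the treatment of reads with several matches are not given in the sources used here. Gene copies and overlapping genes are therefore uncertain. The authors deposited whole-number read counts and FPKM per gene. The deposited FPKM equalled the count over exonic length and library total within 0.005. The authors also deposited the log2 fold changes and p-values of the genes they called. The splicing sheets deposited by the authors hold p-values with FDR and differences in inclusion level. Cells whose 3 read counts had merged into 1 number were parted by groups of 3 digits, which gave back the levels within 0.0005. Sample 1 was taken as wild-type from the name of the comparison.

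Genes averaging 0.5 FPKM or more were fitted with edgeR 4.0.16 (R 4.3.3, TMM scaling, quasi-likelihood test, two-sided, Benjamini-Hochberg adjustment over 16489 genes, threshold 0.05), checked on simulated data. Standard errors are the log2 change over the square root of F. Fold changes are mutant minus wild-type. Related genes were matched by symbol (137 of 155 symbols) or through the table of gene names (13), and 5 were not matched. The 6 genes and all lists were chosen with earlier results of these data known. Named related genes are the paralogs, the called genes with the largest changes in each list (up to 4), called neighbours and the 2 genes most alike in pattern, and others were named after their values were seen. Alternatives were DESeq2 1.42.0, limma 3.58.1 on log2(FPKM + 1), other scalings, filters and prior counts, the replicate block, and leaving out each library.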

Additional observations from a re-analysis of the deposited data

How the results depend on the processing

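The 6 genes kept their direction in each alternative in which they were fitted. On log2(FPKM + 1) with limma, a scale that compresses low levels by construction, the log2 changes were 2.98 for ptpdc1b, 1.83 for snap29, 1.49 for pth1a, 1.77 for dao.2, -2.19 for prkd2 and -2.39 for fkbp16. Leaving out each library moved them between 5.13 and 5.34, 2.27 and 2.52, 2.36 and 3.20, 2.05 and 2.45, -4.70 and -4.28, and -5.08 and -3.90 in the same order. With a minimum of 5 FPKM only snap29 and dao.2 were fitted, and fewer genes were tested. Of 7922 genes 1431 were called, or 18.1%, against 2341 of 16489, or 14.2%, at the minimum of 0.5 FPKM. Among the related genes 11 of 66 were called, or 16.7%, against 18 of 116, or 15.5%. Leaving out each library gave between 1367 and 4828 genes called, between 10 and 33 related genes and between 4 and 19 neighbours. The highest value each time was without mutant replicate 2, and the cause was not tested. With library totals in place of TMM, 5 neighbours were higher and 2 lower, against 6 and 4. At that setting 12.1% of all genes tested were called, against 14.2%.

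Replicate numbers are shared between the groups. Deviations of same-numbered libraries correlated at 0.174, 0.305 and 0.051 across genes. Mutant replicates 1 and 2 correlated most with the wild-type library of their own number, and mutant replicate 3 with wild-type replicate 1 (0.076). Replicate 2 of either group correlated with the other numbers at between -0.283 and -0.114. These values do not settle whether a number marks a pair or a shared batch. The main fit left the numbers out, and a fit with them is given as the replicate block. With the replicate block 3387 genes (20.5% of those tested), 25 related genes (21.6%) and 14 neighbours (23.3%) were called. The 6 genes then had log2 changes of 5.20, 2.37, 2.56, 2.19, -4.45 and -4.43. The block gave 4 higher and 1 lower in the FK506-binding list, 6 and 1 in the list around dao.2, and 1 higher, pth1b, in the list around pth1a. Depth limits pth1a and ptpdc1b in wild-type embryos, with 21 and 51 reads in all, and prkd2 and fkbp16 in mutants, with 55 and 16.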

Other observations

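For each of the 6 genes, the genes most alike in pattern were found as those with the smallest root-mean-square difference of log2(CPM + 1), centred on the mean of the 6 libraries, where CPM is the count scaled to library size. This measure describes 6 libraries in 2 groups and says nothing of shared control. Nearest to ptpdc1b was zgc:111983 (difference of 0.15), with 1221, 1098 and 1588 reads in mutants and 54, 41 and 59 reads in wild-type embryos, and then si:ch211-114l13.11 (0.25). Their log2 changes were 4.62 and 8.33, against 5.21 for ptpdc1b, since the added 1 compresses low levels in this measure. Nearest to snap29 were ZNF501 (1 of many) (0.15) and zgc:174275 (0.19), with lower levels than snap29 in both groups and log2 changes of 4.28 and 3.63, against 2.36 for snap29. Nearest to pth1a were txlnba (0.14), at 7.26 ± 0.872 FPKM in mutants and 2.57 ± 0.499 FPKM in wild-type embryos (SD, n = 3 each), and LMAN2L (1 of many) (0.14). Dao.2 was most like znf1156 (0.12) and cldn1 (0.16), a tight junction gene at 82.5 ± 4.04 FPKM in mutants and 23.9 ± 3.19 FPKM in wild-type embryos (SD, n = 3 each). Prkd2 was most like si:ch211-209l18.4 (0.24), with 0 reads in each mutant library and 191, 256 and 215 reads in wild-type embryos, and the embryonic globin gene hbbe1.1 (0.29). Fkbp16 was most like the lens gene crygm2d2 (0.19), with 15, 14 and 18 reads in mutants and 196, 197 and 246 reads in wild-type embryos, and si:ch73-295i22.2 (0.19). Globin, zinc finger and crystallin genes have near-identical copies and are uncertain.

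Without a filter on low values, 2 genes of the list around pth1a that were below the filter passed, and are named here after their values were seen. The receptor gene pth2r had 22, 39 and 21 reads in mutants and 8, 11 and 4 reads in wild-type embryos (log2 change of 1.77, SE 0.45, edgeR's quasi-likelihood test, adjusted p = 0.00371). The klotho gene kl had 1, 9 and 11 reads in mutants and 0, 0 and 2 reads in wild-type embryos (log2 change of 3.11, edgeR's quasi-likelihood test, adjusted p = 0.0449).

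Beside the mutated gene rbm24a itself, 3 of its 10 tested neighbours were higher and 0 lower in mutants, where 6.71% of all genes tested were higher and 7.48% lower. Cap2, the gene next to it, had 252, 332 and 294 reads in mutants and 124, 118 and 97 reads in wild-type embryos and rose by 1.33 on the log2 scale (SE 0.15, edgeR's quasi-likelihood test, adjusted p = 8.01e-05). Slc30a8 rose by 1.55 (SE 0.20) and eif3hb by 0.71 (SE 0.18), the last of which was lost without mutant replicate 1 or 3 or wild-type replicate 2 or 3.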
